A study of Mus musculus with 8 samples.

Results

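The comparison described here sets knockout mouse bone marrow cells of the group KO_starmut against knockout cells of the group KO_223mut. It rests on 4 of the 8 arrays of the series, 2 in each group, chosen by their titles. In each group they carry the replicate numbers 2 and 3, and arrays of the same number were treated as a pair. Both groups are C57/BL6 marrow labelled mir-223-/-. Their marrow was stimulated for 2 days and then transduced, on virus producer cells irradiated with 4000 cGy, with retroviruses for the transcription factors Hoxa9 (with neomycin resistance) and Meis1 (with YFP). Cells were sorted for YFP and kept in 1.4 mg/ml neomycin. The other 4 arrays, 2 of knockout cells (KO_MIG, mir-223-/-) and 2 of wild-type cells (WT_MIG), had the same Hoxa9 and Meis1 transduction. They entered the fit for the spread and are given below as points of comparison. The deposited gene list calls the first group KO_223*mut, where the asterisk is the older mark for the passenger strand of a microRNA. The group names are therefore read as vectors changed in the passenger strand (KO_starmut) and in the guide strand (KO_223mut) of miR-223. The labels spell out neither MIG nor the mutations, nor whether a replicate was its own mouse or culture, and every p-value here covers the scatter among these arrays only.

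MicroRNAs are cut from a hairpin RNA that yields a guide strand, which is loaded into the silencing complex, and a passenger strand, which is mostly discarded but can be loaded too. Each strand pairs with target messages mainly through its seed, bases 2 to 8, and lowers their stability or translation. miR-223 is a myeloid microRNA that is abundant in granulocytes and monocytes, and its known targets include Nlrp3, Igf1r, Lmo2 and Mef2c. Hoxa9 and Meis1 together keep marrow cells in a self-renewing, leukaemia-like state.

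The pair of strands that the vector names refer to is shown first, as RefSeq lists them on build GRCm38.p6, with the seed in capitals. The passenger strand of mouse miR-223 is the 5p strand at chrX:96242842-96242864 and the guide strand is the 3p strand at chrX:96242884-96242905, both on the plus strand.
mmu-miR-223-5p: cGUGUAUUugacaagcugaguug
mmu-miR-223-3p: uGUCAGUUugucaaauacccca
Both lie in the hairpin at chrX:96242817-96242926, shown here with the strands in capitals.
Mir223 hairpin: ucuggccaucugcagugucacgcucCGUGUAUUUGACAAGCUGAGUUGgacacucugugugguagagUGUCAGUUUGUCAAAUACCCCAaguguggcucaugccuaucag
The seeds of the strands differ, GUGUAUU on the passenger and GUCAGUU on the guide. The sources used here do not give the bases that the vectors changed, and no mutant sequence is shown. The probe set that carries the symbol Mir223 is also listed under F630028O10Rik, so it is not specific to the hairpin. It read -0.08 and 0.15 in the KO_starmut arrays (replicates 2 and 3), against 0.01 and 0.04 in the KO_223mut arrays. The KO_MIG arrays read -0.01 and 0.14 and the WT_MIG arrays -0.98 and -1.07. The vectors differed there by 0.01 (95% interval -0.18 to 0.21), so this probe set does not tell the vector groups apart. WT_MIG read lower than every knockout array, and because the position of its probes relative to the deletion is not known here, it checks no label.

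All values are log2 signals from which the median of each probe set over the 8 arrays had been subtracted. Such values show how arrays differ, not how far a signal lay above background, so the defining markers of marrow could not be checked for presence. Each array held 28853 probe sets, apart from 9 blank cells in KO_starmut replicate 3, and array medians lay between -0.0126 and 0.0109. The difference between the replicates of a group had an SD over probe sets of 0.169 in KO_starmut and 0.185 in KO_223mut. In bulk cells a lower signal can come from fewer cells of a type or from less RNA per cell, and these cannot be told apart.

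Few probe sets were called between the knockout cells with the passenger-strand mutant and those with the guide-strand mutant, and most measured differences were small. With 2 arrays per group a low count of calls does not show that few probe sets differ. In limma, with the replicate number as a block, 1 probe set of the 28853 tested was called at an adjusted p of 0.05 (0.00347%). It is the unnamed probe set 10458589. It read 1.21 and 0.68 in KO_starmut, against -0.05 and -0.31 in KO_223mut. The KO_MIG arrays read 0.21 and -0.16 and the WT_MIG arrays 0.05 and -0.21. Both KO_starmut arrays thus lay above the other 6, and the fitted difference was 1.12 ± 0.0792 on the log2 scale (SE, 2 arrays per group, 2.17-fold, adjusted p = 0.0457). The call is lost in limma without the block, where 0 probe sets passed (lowest adjusted p = 0.741). It is also lost when any 1 array of KO_starmut, KO_223mut or WT_MIG is left out.

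Below the threshold for a call, an unadjusted p under 0.05 was found for 2809 probe sets (9.74%) with the block and for 1358 (4.71%) without it. Among the 2809, 1173 were higher in KO_starmut (4.07% of all) and 1636 lower (5.67%). The split turned when each array was centred on its median, to 1437 higher and 1271 lower. As deposited, the tails leaned to KO_starmut while the counts at that p leaned the other way. With each array centred, both leaned to KO_starmut. Differences of more than 0.5 were higher in KO_starmut for 108 probe sets and lower for 13, and differences of more than 1 were higher for 17 and lower for 0. With each array centred on its median these counts were 119 and 10, and 18 and 0. Of the 121 probe sets beyond 0.5 as deposited, 87 had KO_starmut and KO_223mut arrays that did not overlap, and 107 are unnamed.

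**Figure D1:**
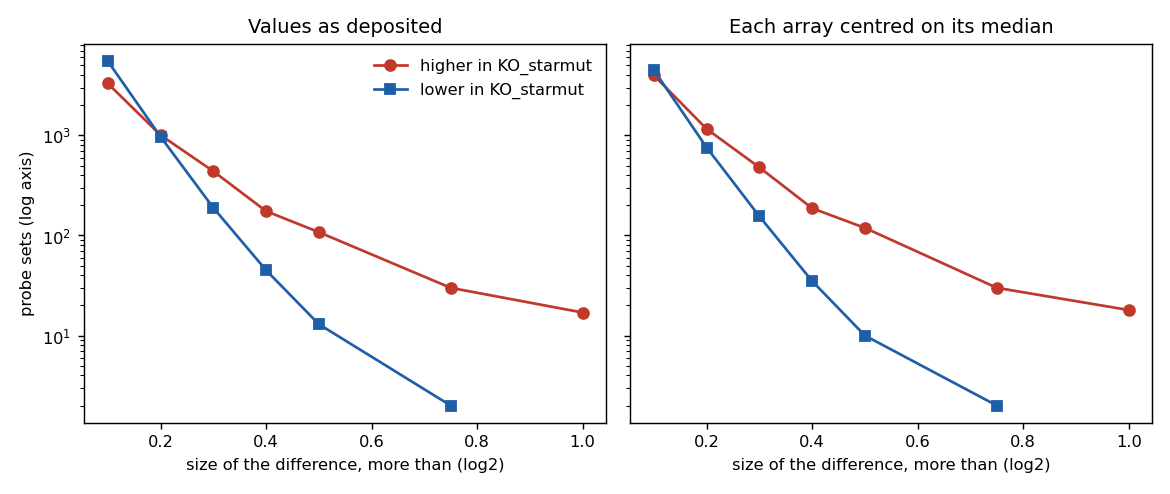
Number of probe sets (log axis) with a difference KO_starmut minus KO_223mut above each size (log2), higher in KO_starmut in red and lower in blue, for values as deposited on the left and with each array centred on its median on the right. Beyond 0.5 the counts are 108 higher and 13 lower as deposited, and the count of 0 lower beyond 1 is not drawn.

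The difference was also computed within each replicate number. Over the 28844 probe sets with a value on all 4 arrays, the replicate 2 and replicate 3 differences had a Pearson correlation of 0.311 and a Spearman correlation of 0.213, and 57.8% had the same sign. This is a description across probe sets, which share arrays and are not independent. Where both differences were beyond 0.5, 53 probe sets were higher in KO_starmut in both pairs, 6 were lower in both and 1 had opposite signs. Beyond 1 in both pairs, 7 were higher in KO_starmut and 0 lower, so most of the 17 above were not beyond 1 in both. Some of the largest differences rested on 1 array. The largest of all was that of the unnamed probe set 10582896, singled out after its values were seen. It read 0.03 and 3.04 in KO_starmut, against -0.29 and 0.20 in KO_223mut, so replicate 3 alone was high, and its unadjusted p was 0.0591 in limma. In all, 9 probe sets differed by more than 1 in replicate 3 and by at most 0.5 in replicate 2, and 2 did the reverse. Most of the 9 carry numbers close together, from 10582882 to 10582916, and those were high in KO_starmut replicate 3 alone. They may not be separate observations.

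**Figure D2:**
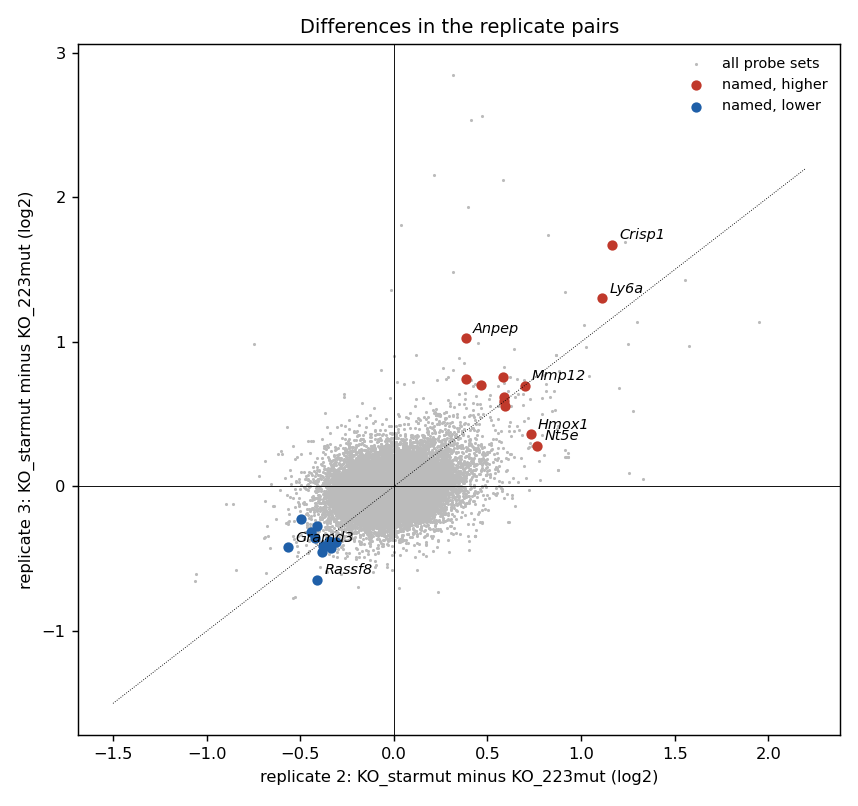
Difference KO_starmut minus KO_223mut (log2) in replicate 2 (x axis) against that in replicate 3 (y axis), 1 grey point per probe set, with leading named genes in red where higher and in blue where lower. The dotted line marks equal differences; Crisp1 and Ly6a lie far out in both pairs, and the grey points that reach almost 3 on the y axis are near 0.3 to 0.5 on the x axis.

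Genes could be named only through the symbols of the deposited list, which the authors had selected by an analysis of variance over the 4 groups on these same arrays. That list holds 1264 probe sets, 1081 of them with a single symbol. Among the 1081, 259 had an unadjusted p under 0.05 (24%), 80 higher in KO_starmut (7.4%) and 179 lower (16.6%). Arrays of the vector groups did not overlap in 687 of the 1081 (63.6%), with 238 higher (22%) and 449 lower (41.5%). Over all probe sets this held for 32.1%, with 10.6% higher and 21.5% lower. The authors' selection favoured probe sets whose replicates lie close together, so the named genes are no sample of all genes. None of the named genes passed the adjusted threshold in limma, so what follows are values and not calls. The authors' deposited table has 518 probe sets higher and 746 lower in KO_223*mut than in KO_223mut. Its ratio reached 1.5 for 7 of the higher and 0 of the lower ones.

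The largest named difference was that of Crisp1, a cysteine-rich secretory protein best known from the epididymis and sperm. Crisp1 read 1.24 and 1.21 in KO_starmut, against 0.08 and -0.47 in KO_223mut. The KO_MIG arrays read -0.24 and 0.15 and the WT_MIG arrays -0.36 and -0.08. Both KO_starmut arrays stood clear of the other 6, which overlapped one another. The fitted difference of Crisp1 was 1.42 ± 0.199 (log2, SE, 2.68-fold, limma adjusted p = 0.166).

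Ly6a, the stem cell antigen Sca-1 of mouse haematopoietic stem and progenitor cells, had 1.15 and 1.14 in KO_starmut, against 0.04 and -0.16 in KO_223mut. Its KO_MIG arrays were the lowest, at -0.85 and -0.43, and its WT_MIG arrays read -0.04 and 0.19. Again KO_starmut alone stood apart at the top, while KO_223mut overlapped wild type. The difference was 1.21 ± 0.133 (log2, SE, 2.31-fold, limma adjusted p = 0.123). Ly6a belongs to a family of similar genes, and its probes may also read relatives.

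A further group of genes had both KO_starmut arrays above the other 6. That held in 2.32% of all probe sets and 7.59% of the single-symbol ones, and among the 12 leading named genes on the higher side it held for 8, which were selected by the same difference. They include enzymes that act at the cell surface or outside the cell. Anpep, the surface peptidase CD13 of myeloid cells, read 0.82 and 0.81 in KO_starmut, against 0.43 and -0.22 in KO_223mut. Its KO_223mut arrays were far apart, so its difference of 0.71 ± 0.231 has a wide 95% interval, from 0.16 to 1.25, and was 1.14 without KO_223mut replicate 2 and 0.27 without KO_223mut replicate 3. Acpp, an acid phosphatase, read 0.78 and 0.75 in KO_starmut, against 0.20 and -0.01 in KO_223mut, a difference of 0.67 ± 0.0797 with little spread. Mmp12, the macrophage elastase, read 0.30 and 0.31 in KO_starmut, against -0.40 and -0.39 in KO_223mut. Its WT_MIG arrays at 0.23 and 0.10 came close to KO_starmut, and its difference was 0.70 ± 0.113.

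Cd200r3, a receptor of mast cells and basophils, read 0.57 and 0.64 in KO_starmut, against 0.10 and -0.06 in KO_223mut, a difference of 0.58 ± 0.0883. The KO_MIG arrays were near 0 and the WT_MIG arrays at -0.43 and -0.22, so KO_starmut was the only group above the median of the series on both arrays by more than 0.5. Psg17, a pregnancy-specific glycoprotein, read 1.005 and 0.68 in KO_starmut, against 0.42 and 0.06 in KO_223mut. Here the groups formed a ladder, with KO_MIG at -0.19 and -0.06 and WT_MIG at -0.66 and -0.67. Usp17l5, a deubiquitinase now named Usp17lc, read 0.48 and 0.57 in KO_starmut, against 0.09 and -0.17 in KO_223mut. Psg17 and Usp17l5 are members of families of similar genes, and the array may not separate the members.

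In the remaining 4 of the 12 at least 1 array of another group reached above the lower KO_starmut array. Rgs1, which shuts off signals of G protein coupled receptors, read 0.14 and 0.22 in KO_starmut, against -0.45 and -0.37 in KO_223mut, with WT_MIG at 0.33 and 0.30. Hmox1, haem oxygenase 1, read 0.46 and 0.15 in KO_starmut, against -0.27 and -0.21 in KO_223mut, with WT_MIG at 0.17 and 0.24. The KO_MIG arrays read -0.14 and -0.38 for Rgs1 and -0.15 and -0.32 for Hmox1, below both KO_starmut arrays of each gene.

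Ccr1, a chemokine receptor of myeloid cells, read 0.36 and 0.04 in KO_starmut, against -0.24 and -0.52 in KO_223mut. Its WT_MIG arrays were much higher, at 1.02 and 0.85, so the vector groups differed by less than either did from wild type. Nt5e, the surface enzyme CD73 that makes adenosine, read 0.16 and -0.16 in KO_starmut, against -0.60 and -0.45 in KO_223mut. The WT_MIG arrays of Nt5e read 1.21 and 1.13 and its KO_MIG arrays 0.23 and -0.40, and the difference between vectors was 0.52 ± 0.162. It was 0.28 without KO_223mut replicate 2 and at most 0.77 without another array. Adjusted p-values of the 12 genes in limma lay between 0.123 and 0.409.

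**Figure D3:**
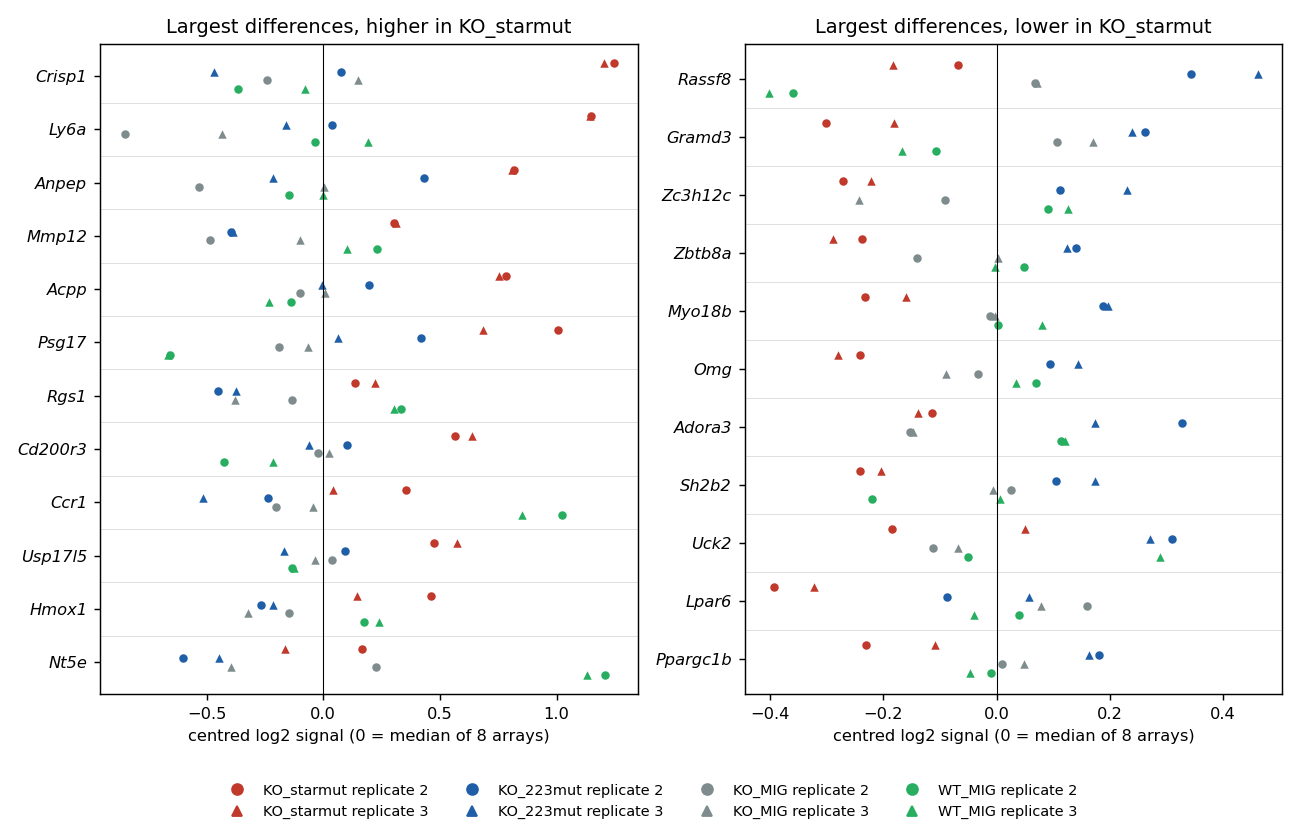
Centred log2 signal (x axis, 0 is the median of the 8 arrays) of the named genes with the largest differences, higher in KO_starmut on the left and lower on the right, 1 row per gene, with colours for groups, circles for replicate 2 and triangles for replicate 3. The KO_starmut arrays of Crisp1 and Ly6a stand to the right of the other 6, while Ccr1 and Nt5e have their wild-type arrays farthest to the right; the panels differ in x scale.

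On the lower side the largest named differences were smaller, between -0.34 and -0.53. Both KO_223mut arrays were the highest of the 8 in 8 of the 12 genes, against 5.17% of all probe sets and 16.8% of the single-symbol ones. Both KO_starmut arrays were the lowest in 7 of the 12, against 5.05% and 16.2%, and as the genes were picked by this difference nothing is read from either count. Rassf8, a protein with a Ras association domain, read -0.07 and -0.18 in KO_starmut, against 0.34 and 0.46 in KO_223mut. The KO_MIG arrays of Rassf8 were both at 0.07 and its WT_MIG arrays at -0.36 and -0.40, so the KO_223mut arrays were the highest of the 8. The difference was -0.53 ± 0.0696 (limma adjusted p = 0.142), and a further probe set of Rassf8 gave -0.29 ± 0.0605. Gramd3, a protein with a lipid-binding GRAM domain, read -0.30 and -0.18 in KO_starmut, against 0.26 and 0.24 in KO_223mut. With KO_MIG at 0.11 and 0.17 and WT_MIG at -0.11 and -0.17, the groups of Gramd3 did not overlap, and KO_starmut and KO_223mut were its ends. Its difference was -0.49 ± 0.065 (limma adjusted p = 0.142).

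Among the others, some had KO_MIG close to KO_starmut. Adora3, the adenosine A3 receptor, read -0.11 and -0.14 in KO_starmut, against 0.33 and 0.17 in KO_223mut, with KO_MIG at -0.15 on both arrays. Zc3h12c, an RNase of the Regnase family, read -0.27 and -0.22 in KO_starmut, against 0.11 and 0.23 in KO_223mut, with KO_MIG at -0.09 and -0.24. Uck2, a uridine and cytidine kinase, read -0.19 and 0.05 in KO_starmut, against 0.31 and 0.27 in KO_223mut. Its difference was -0.36, and -0.24 without KO_223mut replicate 2. In these 3 genes it was the KO_223mut arrays that stood above both other knockout groups.

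Lpar6, a receptor for lysophosphatidic acid, had KO_starmut as the group that stood apart, at -0.39 and -0.32, against -0.09 and 0.06 in KO_223mut, with KO_MIG at 0.16 and 0.08. In the zinc finger gene Zbtb8a (-0.40 ± 0.0682), the myosin gene Myo18b (-0.39 ± 0.056) and the myelin glycoprotein gene Omg (-0.38 ± 0.0575), KO_MIG lay about midway. The same held less closely for Sh2b2, an adaptor of insulin and cytokine receptors (-0.36 ± 0.0727), and for the transcriptional coactivator gene Ppargc1b (-0.34 ± 0.0623). A further probe set of Myo18b gave -0.05 ± 0.0642, so its probe sets disagree. Adjusted p-values in limma lay between 0.142 and 0.328 for the lower genes.

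With KO_MIG as a common point, the 12 genes higher in KO_starmut had the KO_MIG mean nearer to KO_223mut in 11 cases and nearer to KO_starmut in 1, Nt5e. Of the 12 lower ones, counted with 1 gene that is not reported here, 6 had it nearer to each. Over all single-symbol probe sets with an unadjusted p under 0.05, KO_MIG was nearer to KO_223mut in 35 of the 80 higher and 107 of the 179 lower ones. The KO_MIG arrays serve both sides of this description, which is why no test is attached to it.

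Members of gene lists drawn up for these cells could be followed only through the deposited symbols, which cover 63 of 594 genes. Of the monocyte and macrophage list, 7 of 32 genes were named. An unadjusted p under 0.05 with higher values in KO_starmut was found for 5 of them, Anpep, Mmp12, Ccr1, Itgam and Cd68, and with lower values for Marco. Their median difference was 0.47, against -0.02 over all probe sets and -0.03 over the single-symbol ones. Of all probe sets 4.07% were higher by that rule, and of the single-symbol ones 7.4%. Anpep, Mmp12 and Ccr1 were already among the leading genes picked by this difference, so nothing is read from the count or the median. None of the 7 passed the adjusted threshold in limma (lowest adjusted p = 0.191).

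Itgam, the integrin CD11b of mature myeloid cells, read 0.03 and -0.20 in KO_starmut, against -0.51 and -0.59 in KO_223mut. The KO_MIG arrays of Itgam were at -0.03 and 0.03 and its WT_MIG arrays at 0.71 and 0.48. The KO_223mut arrays were thus the lowest of the 8, as in 2.98% of all probe sets and 9.53% of the single-symbol ones, and KO_starmut lay close to KO_MIG. The difference of Itgam between vectors was 0.47 ± 0.0821 (limma adjusted p = 0.205). Cd68, a lysosomal glycoprotein of macrophages, also had its KO_223mut arrays lowest of the 8. It read -0.02 and 0.05 in KO_starmut, against -0.21 and -0.17 in KO_223mut. Its difference was 0.20 ± 0.0584. Marco, a scavenger receptor, went the other way at -0.24 ± 0.0891, and the signal regulator Sirpa was at -0.06. The neutrophil list was followed by Itgam alone.

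Of the innate receptor and inflammasome list 6 of 30 genes were named, 2 of them higher by an unadjusted p under 0.05 and 0 lower, with a median difference of 0.17. By that rule 4.07% of all probe sets were higher and 5.67% lower, and of the single-symbol ones 7.4% and 16.6%. Nlrp3, the sensor of the inflammasome and a known target of the guide strand, read 0.10 and -0.00 in KO_starmut, against -0.52 and -0.39 in KO_223mut. Its KO_MIG arrays were at 0.00 and -0.21 and its WT_MIG arrays at 0.39 and 0.32. For this guide target the group named for a passenger-strand change was the higher vector group, and wild type was higher still. The difference was 0.50 ± 0.0844 (limma adjusted p = 0.191). Clec4d, a lectin receptor of myeloid cells, had 0.02 and -0.02 in KO_starmut, against -0.32 and -0.26 in KO_223mut, a difference of 0.29 ± 0.0736. The RNA sensors Tlr13 (0.21) and Tlr7 (-0.23), the sensor Nod1 (0.13) and the DNA sensor Aim2 (-0.19) did not reach an unadjusted p of 0.05. Leaving out 1 array gave 0.03 to 0.39 for Tlr13, -0.33 to -0.13 for Tlr7, 0.08 to 0.19 for Nod1 and -0.33 to -0.05 for Aim2.

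The other known targets of the guide strand showed little difference between vectors. Of 34 listed targets 5 were named, and 1 of them, Nlrp3, had an unadjusted p under 0.05, while the median was 0.03. Over all probe sets 9.74% had such a p, and over the single-symbol ones 24%. Igf1r, a growth factor receptor tyrosine kinase, read 0.01 and -0.01 in KO_starmut, against -0.17 and 0.12 in KO_223mut. The KO_starmut arrays lay between those of KO_223mut, and the difference was 0.03 with a 95% interval from -0.19 to 0.24. The intervals ran from -0.28 to 0.09 for the haematopoietic regulator Lmo2, from -0.10 to 0.17 for Rasa1, which switches off Ras, and from -0.13 to 0.15 for the transcription factor Sp3. Across these 4 targets the bounds reach down to -0.28 (Lmo2) and up to 0.24 (Igf1r). Of the signalling genes downstream of Igf1r only Rps6kb1, a kinase that drives protein synthesis, was named, at 0.11 ± 0.0725. Mef2c, Hoxa9 and Meis1 were not named.

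Among stem and progenitor genes 4 of 32 were named, and Ly6a was alone in being higher. By an unadjusted p under 0.05, 1 was higher (Ly6a) and 1 lower (Hoxa10). That rule gave 4.07% higher and 5.67% lower over all probe sets, and 7.4% and 16.6% over the single-symbol ones. Ly6a was already among the leading genes picked by this difference, so nothing is read from these counts. Hoxa10, a homeobox gene, read -0.05 on both KO_starmut arrays, against 0.10 on both KO_223mut arrays, a difference of -0.15 ± 0.0579 (limma adjusted p = 0.469). Flt3, a progenitor receptor kinase, was at -0.12 with overlapping arrays and Lmo2 at -0.10. The median of the 4 was -0.11, against -0.02 over all probe sets and -0.03 over the single-symbol ones.

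Of the cytokine and chemokine list 6 of 38 were named, with 1 higher (Ccr1) and 2 lower by an unadjusted p under 0.05. That rule gave 7.4% higher and 16.6% lower among single-symbol probe sets, and 4.07% and 5.67% among all probe sets. Lower list members were Il1r1, the interleukin 1 receptor, at -0.27 ± 0.0905 and Tnfrsf1a, a receptor of tumour necrosis factor, at -0.20 ± 0.0569. Il1r1 was at -0.16 without KO_223mut replicate 2. Il1r1 read -0.29 and -0.24 in KO_starmut, against 0.02 and -0.02 in KO_223mut, and 0.19 and 0.34 in KO_MIG, so that KO_starmut was lowest. The growth factor Csf1 was at 0.17, Tnf at 0.01 and the eosinophil receptor Ccr3 at -0.08. Apobec3, an antiviral deaminase and 1 of 2 named interferon response genes, read -0.31 and -0.30 in KO_starmut, against -0.00 and 0.00 in KO_223mut. Its KO_MIG arrays were both at 0.21 and its difference was -0.31 ± 0.065, while Stat2, the other named gene of that list, was at 0.07.

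The list of surface and secreted peptidases and phosphatases had 4 of 30 genes named, Anpep, Mmp12, Acpp and Timp2. The first 3 were higher in KO_starmut by an unadjusted p under 0.05, and Timp2, an inhibitor of matrix peptidases, was at 0.11. The share higher by that rule was 4.07% over all probe sets and 7.4% over the single-symbol ones. All 3 were already among the leading genes picked by this difference, so nothing is read from their count. The median of the 4 was 0.69, against -0.02 over all probe sets and -0.03 over the single-symbol ones. It rests on the same 3 genes, so nothing is read from it either. Because Anpep and Mmp12 also stand in the macrophage list, these lists are not separate observations.

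**Figure D4:**
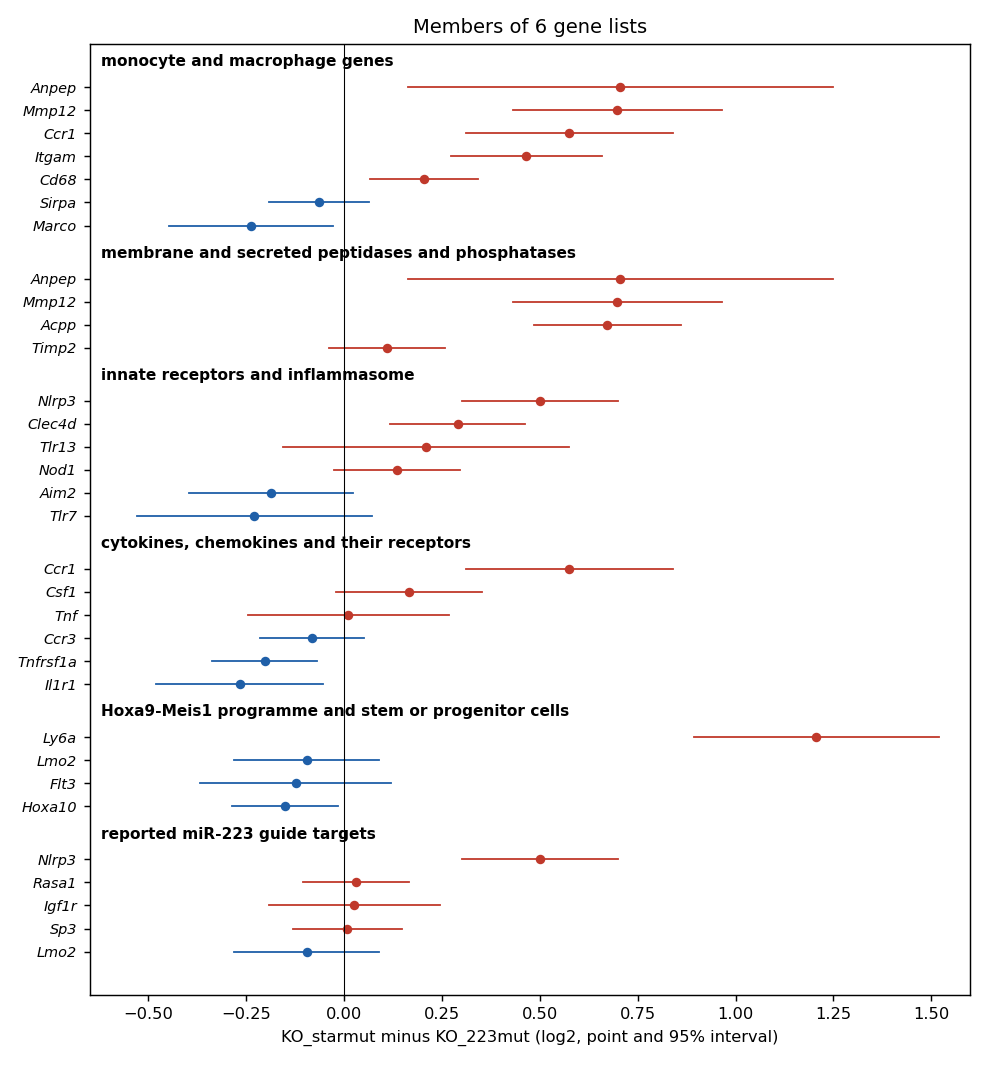
Difference KO_starmut minus KO_223mut (x axis, log2) of each named member of 6 gene lists, as a point with its 95% interval from limma, red where above 0 and blue where below. Ly6a at 1.21 stands alone in the stem and progenitor list, Nlrp3 at 0.50 is the only guide target whose interval excludes 0, and the intervals of Marco, Hoxa10, Il1r1 and Tnfrsf1a lie below 0.

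Housekeeping and growth lists showed small differences. Of the ribosome biogenesis list 9 of 57 genes were named, with a median of -0.03. By an unadjusted p under 0.05, 1 was higher (Ddx10 at 0.20) and 1 lower (Bop1 at -0.21). The same rule gave 4.07% higher and 5.67% lower over all probe sets, and 7.4% and 16.6% over the single-symbol ones. Of the ribosomal protein list 7 of 66 genes were named on 8 probe sets, 1 of them higher (Rpl24 at 0.20 on 1 probe set and 0.19 on a further one), with a median of 0.05. The values of Rpl24 rested on replicate 2, where the pair differed by 0.34 and 0.33, against 0.06 and 0.04 in replicate 3. Without KO_223mut replicate 2 they were 0.09 and 0.06. Of the lysosome list 6 of 46 were named, 1 higher (Cd68), with a median near 0. Of the replication list Cdc45 (-0.13), Pola1 (-0.05) and Rfc3 (0.09) were named and none reached an unadjusted p of 0.05. The immediate early gene Fos was at 0.25 ± 0.117.

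Markers of other cell types were few in the list. Markers of fibroblasts, a cell type that some virus producer lines derive from, were named by Mmp2 and Dcn of 18 genes. Mmp2 read -0.02 and -0.14 in KO_starmut, against 0.25 and 0.21 in KO_223mut, a difference of -0.31 ± 0.0729, and Dcn was at -0.12 ± 0.0544. The summed values of both were -0.01 and -0.18 in KO_starmut, against 0.35 and 0.32 in KO_223mut. Mmp2 alone was lower by an unadjusted p under 0.05, as were 5.67% of all probe sets and 16.6% of the single-symbol ones. With 2 genes of the list named, nothing is read about the cell type. The part of fibroblasts in the lower values of other genes was not tested. Of the mast cell and basophil list 1 of 14 genes, Cd200r3, was named. The T and NK cell gene Cd96 was at -0.20 ± 0.0758 (-0.10 without KO_223mut replicate 2), the B-lineage gene Igll1 at -0.16 ± 0.054 and the antigen presentation gene Cd74 at 0.13 with overlapping arrays. The Y-linked Eif2s3y was at 0.12 ± 0.0673. No gene of the erythroid and megakaryocyte list was named.

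Probe sets named for small RNAs leaned to KO_starmut. They were picked by their symbols after values had been seen, so no test is attached. All 9 probe sets with a microRNA symbol and all 5 with a small nucleolar RNA symbol had a difference above 0. In 12 of the 14 both KO_starmut arrays lay above both KO_223mut arrays, which held for 10.6% of all probe sets and 22% of the single-symbol ones. The median difference of the 14 was 0.21, and 9 were higher with an unadjusted p under 0.05, as were 4.07% of all probe sets and 7.4% of the single-symbol ones. Of the 5 small nucleolar RNA probe sets 2 are also listed under ribosomal protein genes, Rpl12 and Rpl13a.

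Mir142, a microRNA of blood cells, showed the arrays of KO_223mut as the lowest of the 8. Its probe set read -0.12 and -0.09 in KO_starmut, against -0.49 and -0.57 in KO_223mut, with KO_MIG at 0.09 and 0.26 and WT_MIG at 0.56 and 0.21. The difference of Mir142 was 0.43 ± 0.114 (limma adjusted p = 0.332). Its mature strands on GRCm38.p6, with the seed in capitals, share no seed with those of miR-223. The 5p strand lies at chr11:87756867-87756887 and the 3p strand at chr11:87756903-87756925.
mmu-miR-142a-5p: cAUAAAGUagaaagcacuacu
mmu-miR-142a-3p: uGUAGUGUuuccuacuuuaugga
An array probe set of this kind reads the transcript around the hairpin and not the processed strands. Mir186 read 0.12 and 0.35 in KO_starmut, against -0.09 on both KO_223mut arrays. Mir23b read 0.19 and 0.16 in KO_starmut, against -0.22 and -0.17 in KO_223mut. The probe set listed under 2210403K04Rik and Mir22 read 0.37 and 0.32 in KO_starmut, against 0.05 and -0.24 in KO_223mut. For Mir186 and Mir23b the KO_MIG arrays lay between the vector groups, while for Mir22 both KO_MIG arrays, at -0.05 and -0.11, lay within the range of KO_223mut. Mir673, at 0.00, and the probe set of Mir223 were the only ones of the 14 whose arrays overlapped.

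**Figure D5:**
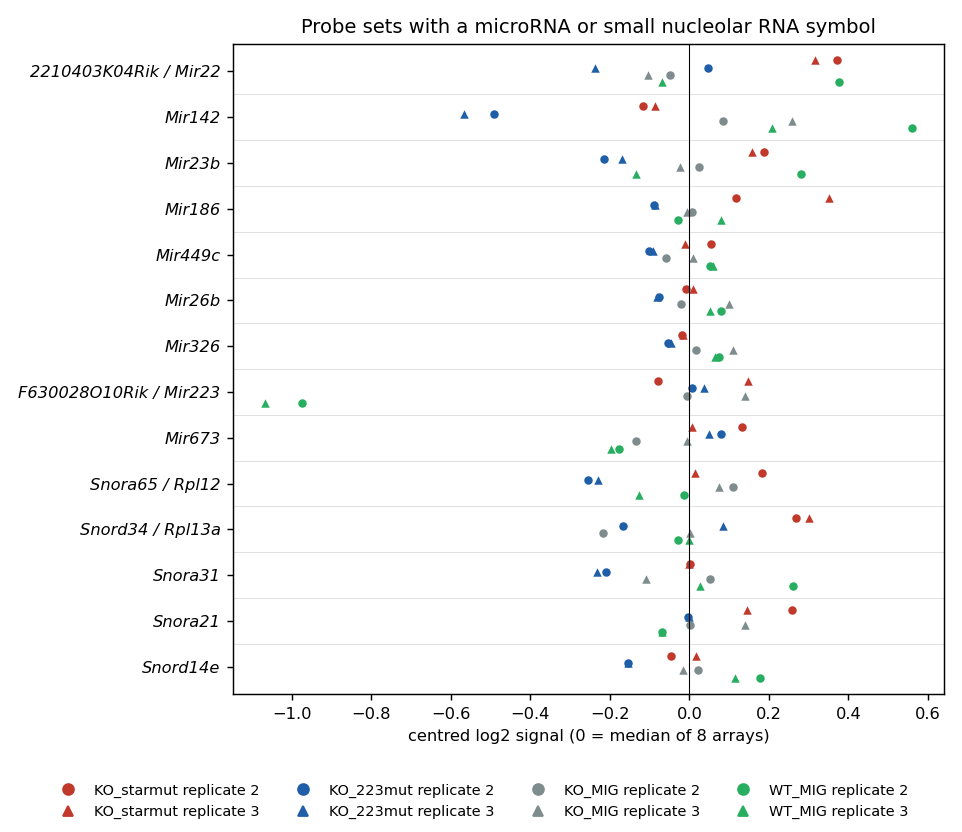
Centred log2 signal (x axis, 0 is the median of the 8 arrays) of the 14 probe sets with a microRNA or small nucleolar RNA symbol, 1 row each, with colours for groups, circles for replicate 2 and triangles for replicate 3. In 12 rows both KO_starmut arrays lie to the right of both KO_223mut arrays, and the wild-type arrays of the Mir223 row lie far to the left.

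The promoters of the leading genes, which were picked by the size of their differences, were looked at for short sequence motifs. RefSeq's promoter table (GRCm38.p6, 300 bases around each gene's start) held 10 promoters of 9 of the 12 higher genes and 7 promoters of 6 of the lower ones. The motif TTGCNNAA, a core of C/EBP factors that drive myeloid genes, was found on either strand in 5 of the 10 promoters (Crisp1, Mmp12, Psg17, Cd200r3 and Usp17l5). It was found in 1 of the 7 promoters of lower genes (Zc3h12c) and in 10.8% of all 32851 promoters. The Meis1 core TGACAG was found in 2 of the 10 and 1 of the 7, against 19.2% of all. The PU.1 motif GAGGAAGT was found in 1 of the 10 (Mmp12) and 1 of the 7 (Adora3), against 3.2% of all. The AP-1 motif TGANTCA was found in another promoter of Mmp12 and in that of Adora3, 1 of the 10 and 1 of the 7, against 7.81% of all. The STAT motif TTCNNNGAA was found in 1 of the 10 and 0 of the 7, against 8.3% of all, and TATAAA in 3 of the 10 and 0 of the 7, against 13.6%. These are matches of letters in a few promoters chosen by their genes' differences, not binding sites. Several motifs were looked for and none was tested, so nothing is read from these shares. The promoters of Crisp1, at chr17:40319158-40319457 on the minus strand, and of Mmp12, at chr9:7344147-7344446 on the plus strand, are shown with matches in capitals. In Crisp1 these are TTGCACAA for C/EBP and TATAAA. In Mmp12 they are ACTTCCTC, the PU.1 motif on the other strand, and TTAAGCAA, the C/EBP motif on the other strand. No matches overlapped.
Crisp1 promoter: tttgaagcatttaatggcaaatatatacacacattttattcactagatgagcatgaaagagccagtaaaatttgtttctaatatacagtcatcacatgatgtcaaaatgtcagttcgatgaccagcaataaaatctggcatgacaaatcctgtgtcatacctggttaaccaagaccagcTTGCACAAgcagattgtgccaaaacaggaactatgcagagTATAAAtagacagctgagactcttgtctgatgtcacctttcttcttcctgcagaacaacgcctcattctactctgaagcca
Mmp12 promoter: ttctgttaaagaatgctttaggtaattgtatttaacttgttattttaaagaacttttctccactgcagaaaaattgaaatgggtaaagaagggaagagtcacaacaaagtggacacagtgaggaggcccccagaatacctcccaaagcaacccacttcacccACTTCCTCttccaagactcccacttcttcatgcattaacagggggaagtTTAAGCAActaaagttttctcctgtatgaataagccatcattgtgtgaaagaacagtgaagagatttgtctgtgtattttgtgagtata

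The calls depended on which arrays shared the estimate of spread. With only the 4 arrays of KO_starmut and KO_223mut in limma, 90 probe sets passed, 75 higher and 15 lower in KO_starmut. Named genes among them were Crisp1, Ly6a, Mmp12, Acpp, Psg17, Rgs1, Cd200r3, Ccr1, Rassf8 and Gramd3, with adjusted p-values from 0.00228 to 0.0497. That fit has 1 residual degree of freedom, and with only the 6 knockout arrays 0 passed. An exact permutation test of 2 arrays against 2 that ignores the pairing cannot go below p = 0.333 for a single gene.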

How the data were processed

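The authors deposited, for 8 Affymetrix mouse gene arrays, log2 signals summarised by RMA and centred per probe set on its median over the samples, per the file headers. The gene list was also deposited by the authors. Per the file headers it keeps probe sets from the 20th to the 100th percentile of raw signal with an uncorrected p-value under 0.05 in a Welch analysis of variance over 4 groups. It gives a log2 fold change, a linear ratio and a signed fold change (a score) per comparison, deposited by the authors, and the log2 fold changes used match the group means here to within 4.3e-07. Other normalization steps are unknown here.

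Groups came from the sample titles. With limma 3.58.1 in R 4.3.3, all 28853 probe sets and 8 arrays were fitted with 4 groups and the replicate number as a block (3 residual and 4.23 prior degrees of freedom). Tests are two-sided, with Benjamini-Hochberg adjustment over all probe sets at 0.05. Intervals are 95%. The pairing comes from the replicate numbers in the titles, whose meaning no label states. After group means were removed, arrays sharing a number had correlations of 0.36 to 0.533 in 6 of 6 pairs of groups. The script was tested on simulated data. No level filter was possible on centred values. The small number of arrays limits the precision.

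Named are single-symbol probe sets: the 12 largest differences each way with an unadjusted p under 0.05 and no overlap of arrays, since fewer than 5 were called, plus all list members, Mir223, Igf1r, Mef2c, Hoxa9 and Meis1 where listed. Probe sets with small RNA symbols and 10582896 were added after their values were seen. The members and the 22 lists were chosen with earlier results of these data known. The values of 2 genes are not reported here, though counts include them. Of 1049 symbols, 1012 were found in RefSeq's table, and those printed are the list's. No coordinates of genes are given because that table's build differs from the mm9 build of the array annotation. Alternatives were the fit without the block, with 4 or 6 arrays, without 1 array, with arrays centred on their median, with robust variances, with a gene's probe sets averaged, and without probe sets with blank cells.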

Additional observations from a re-analysis of the deposited data

How the results depend on the processing

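With no replicate block 0 probe sets were called and 1358 had an unadjusted p under 0.05, against 1 and 2809 with the block. With only the 4 arrays of KO_starmut and KO_223mut 90 were called, and with only the 6 knockout arrays 0. Centring arrays, robust variances, averaging probe sets of a gene and leaving out blank cells each gave 1 call. Leaving out 1 array gave 0 to 7 calls and 1588 to 3304 probe sets with an unadjusted p under 0.05. There were 7 calls without either KO_MIG array, 0 without either WT_MIG array and 0 without any KO_starmut or KO_223mut array, and the 1588 came without KO_starmut replicate 2. A group left with 1 array is assumed to vary like the others, and the cause of the changes in calls was not tested. Of the 1245 combinations of 83 named results and 15 settings, 1215 kept direction and side of the threshold. Settings that changed only the estimate of spread left every difference the same by construction, so no direction could turn there. These were the fits without the block, with 4 or 6 arrays, with robust variances and without a KO_MIG or WT_MIG array. None of the named genes passed the threshold in the main fit, so keeping its side meant staying uncalled. Another 10 combinations passed the threshold, all with only the 4 arrays. The other 20, over 13 results near 0, changed sign. Centring arrays turned Man2b1 to 0.0069. Leaving out 1 array gave -0.0467 to 0.3088 for Cd74, -0.0852 to 0.1103 for the Mir223 probe set, -0.0786 to 0.13 for Igf1r, -0.0889 to 0.0985 for Lipa, -0.2071 to 0.0155 for Lmo2, -0.0396 to 0.0255 for Man2b1 and -0.1101 to 0.0118 for the further Myo18b probe set. It gave -0.0453 to 0.1358 for Nol9, -0.0692 to 0.2583 for Rfc3, -0.026 to 0.051 for Rps2, -0.0443 to 0.0612 for Sp3, -0.0152 to 0.1584 for Stat2 and -0.1874 to 0.2093 for Tnf.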
